A study of Mus musculus with 10 samples.

Results

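The lungs of C57BL/6J mice were examined 24 hours after the whole thorax had received 12.5 Gy of γ-irradiation, by comparing 1 irradiated pool with the control pool of the same hour. These are 2 of the 10 libraries of the series, chosen by their labelled time and treatment. Each library was made from RNA of 3 mice joined before sequencing, from a suspension of all cells of the lung. The other 8 libraries are a control at 0 Gy and an irradiated pool at 1, 4, 12 and 32 weeks. The 4 later controls entered here to measure how much unirradiated pools vary. Together with the 24-hour control they are also the baseline of the main test. The 4 later irradiated pools are quoted only as values beside the 24-hour pool. The labels name no genotype, allele or agent other than strain and dose, and give neither age nor the way of dissociation. The controls are age-matched, so the later controls may come from older mice than the 24-hour pair, and age and date of preparation cannot be told apart from pool-to-pool variation.

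The 24-hour control held an estimated 15335035 sequenced fragments assigned to genes and the irradiated pool 14464389, against 8666034 to 17308789 in the 4 later controls. Fragment numbers here and below are estimates, read from the spacing of low values in the deposited counts, and bounds given for undetected genes rest on them. Levels below are in CPM, a gene's count scaled to the size of its library after correction for composition. A gene is said to have risen or fallen when its adjusted p was under 0.05 in edgeR's quasi-likelihood test of the irradiated pool against the 5 controls, with Benjamini-Hochberg adjustment over 15625 tested genes. With 1 irradiated pool, its own variation was assumed to be that of the controls. The p-values therefore describe spread between pools of 3 mice and not between mice. Each fold change of level is the irradiated pool over the 24-hour control, and each log2 change with its SE is against the 5 controls. The SE was derived from the test, as the size of the log2 change over the square root of its F statistic. In RNA of a whole organ, fewer cells of a type and less RNA per cell cannot be told apart. Haemoglobin genes took 4.05% of counts in the 24-hour control and 4.8% in the irradiated pool, and markers of lung cells were present in both, with Pecam1 of endothelium at 184 and 167 CPM and Sftpc of alveolar type 2 cells the most abundant of those named below.

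Ionising radiation breaks DNA, and the damage kinases ATM and ATR then stabilise the transcription factor p53. p53 switches on genes that halt the cell cycle, such as Cdkn1a, that feed back on p53 itself, such as Mdm2, and that favour cell death, such as Bax. The p21 protein made from Cdkn1a leads to assembly of the DREAM repressor on promoters of cell cycle genes. Cytosolic DNA or RNA can separately start an interferon response, in which type I interferons act through their receptor and a complex of transcription factors on target genes. In the lung, lymphocytes are known to be very sensitive to radiation, whereas macrophages and most epithelial cells are more resistant.

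Over all genes, 94 rose and 71 fell in the irradiated pool, which is 1.06% of those tested (0.602% rose and 0.454% fell). The genes that rose include p53 targets, interferon-stimulated antiviral genes, monocyte chemokines, complement and macrophage receptors. Those that fell include mitotic genes, DNA replication genes, B cell genes and 3 genes of MHC class II presentation. The median fold change was 2.61 among genes that rose and 4.11 among those that fell, and every one of the 165 lay outside the range of the 5 controls. Lying outside that range was common in itself, since 22.1% of tested genes were above all 5 controls and 21.2% below. At an unadjusted p under 0.05 in edgeR, 876 tested genes were higher and 979 lower. These figures over all tested genes are the background to every list below. The lists were chosen with earlier results of these data known, so their shares are a description and no test. A difference of over 2-fold from the 24-hour control was found upward in 3.34% of tested genes and downward in 4.64%. The median gene differed by -0.0041 on the log2 scale from the 24-hour control. With the counts scaled to the library total instead, 54 genes rose and 68 fell. The total depended most on the 1-week control, without which 42 rose and 24 fell, and the 66 genes were all among the 165.

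**Figure D1:**
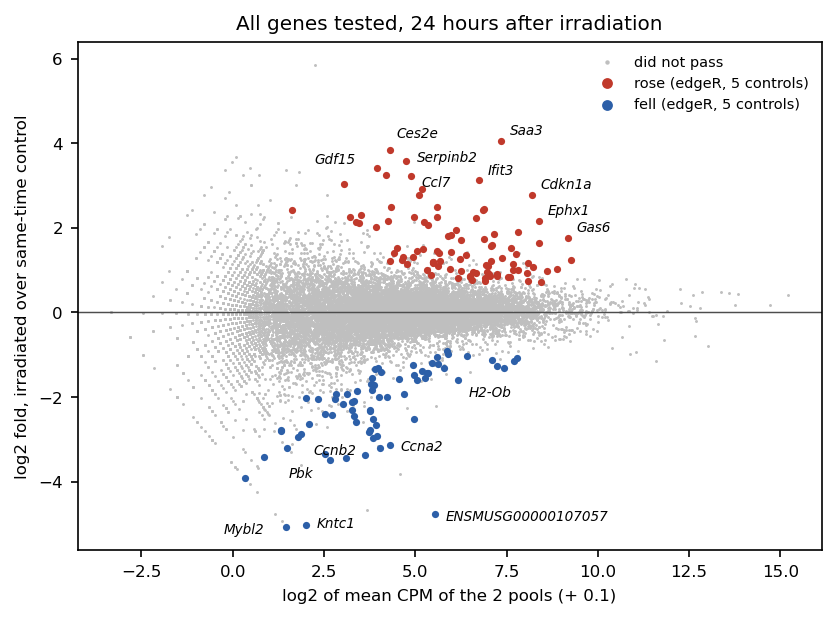
Each point is 1 of 15625 tested genes, with its log2 level against its log2 change between the irradiated pool and the 24-hour control, and coloured points are the 94 that rose and 71 that fell against the 5 controls. The called genes lie above and below a cloud that is centred on 0.

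Against the 24-hour control alone, with the spread taken from the 4 later controls, 7 genes passed, or 0.0448% of those tested. Ifit3, which encodes an interferon-induced antiviral protein, had a log2 change of 3.13 (adjusted p = 0.0113). Cdkn1a, the cell cycle inhibitor p21, had 2.79 (adjusted p = 0.0256). Ephx1, the microsomal epoxide hydrolase, had 2.17 (adjusted p = 0.0256), and Phlda3, a p53-induced inhibitor of AKT, had 2.23 (adjusted p = 0.0338). Ccnb2 and Ccna2, the cyclins B2 and A2 of G2 and mitosis, had log2 changes of -3.27 and -3.17 (both adjusted p = 0.036). The seventh, ENSMUSG00000107057, carried an identifier with no symbol in the annotation used and had a log2 change of -4.84 (adjusted p = 0.00153). Its level was 3.12 CPM in the irradiated pool and 80.9 to 113 CPM in the 5 controls, and 90.7 to 133 CPM in the 4 later irradiated pools. Without the 1-week control 2 genes passed in this contrast, and without the 12-week control 3.

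Among p53 targets of arrest, feedback and stress response, 11 of 23 tested members rose and none fell, where 0.602% of all tested genes rose. Summed over the list, the irradiated pool stood at 3478 CPM and the controls at 1603 to 1837 CPM. The list's median log2 change from the 24-hour control was 0.99, against -0.0041 for all genes. Among p53 targets of cell death, 4 of 15 rose, with a median of 0.48. None of 8 p53 targets in DNA repair passed the test in edgeR, 1 had an unadjusted p under 0.05, on the lower side, and DESeq2 and limma called none.

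Cdkn1a (chromosome 17, 29090976 to 29100727, plus strand, GRCm38) measured 516 CPM in the irradiated pool. In the controls of 24 hours and 1, 4, 12 and 32 weeks, the order kept throughout, it measured 74.8, 72.6, 58.8, 48.2 and 68.3 CPM. The irradiated value was far above every control, 6.88-fold above the 24-hour pool, with a log2 change of 3.00 ± 0.20 (adjusted p = 0.000121). Per length of transcript, Cdkn1a went from 63.8 to 453 FPKM and Ephx1 from 56.4 to 259 FPKM, so both were higher than Phlda3, which went from 20.9 to 102 FPKM. Phlda3 (chromosome 1, 135766119 to 135769136) measured 166 CPM, against 35.4, 32.8, 38.2, 36.4 and 39.5 CPM, which is 4.67-fold higher than the 24-hour control (2.19 ± 0.16, adjusted p = 0.000243). Ephx1 (chromosome 1, 180976210 to 181020904) measured 549 CPM, against 122, 134, 150, 149 and 135 CPM, 4.49-fold higher (1.99 ± 0.15, adjusted p = 0.000307). The control pools of both genes were closely grouped and did not reach the irradiated value. Ccng1, cyclin G1, measured 354 CPM against 75.8 to 117 CPM (adjusted p = 0.00179). Sesn2, a stress sensor that restrains mTORC1, measured 79.8 CPM against 15.8 to 29.3 CPM (adjusted p = 0.0127). Dcxr, a carbonyl reductase, measured 201 CPM against 60.5 to 90.6 CPM (adjusted p = 0.00986). The other called members were Zmat3, an RNA-binding regulator of splicing, at 15.3 CPM against 2.97 to 4.99 CPM, Abhd4, a lipase, at 132 CPM against 64.7 to 73.8 CPM, and Rps27l at 247 CPM against 104 to 138 CPM (adjusted p = 0.0405, 0.0232 and 0.0291). Gdf15, a secreted stress cytokine, was at 28.1 CPM and spread widely in the controls at 2.47, 3.8, 2.77, 1.53 and 6.57 CPM. Its change of 3.03 ± 0.50 passed the test (adjusted p = 0.0232) but not without the 1-week control (0.0657).

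Mdm2, the ligase that degrades p53, rose less than Cdkn1a in size. It stood at 117 CPM against 64.8, 60.9, 63.3, 67.2 and 53.2 CPM, 1.8-fold higher than the 24-hour control (0.92 ± 0.17, adjusted p = 0.0391), with no overlap. Of the death genes, Bax, which permeabilises mitochondria, measured 187 CPM against 80.8, 77.3, 65.2, 62.2 and 63.8 CPM (1.42 ± 0.18, adjusted p = 0.00534). Eda2r, a receptor of the tumour necrosis factor family, was low in every control at 1.65, 1.54, 2.86, 1.19 and 1.11 CPM and measured 14.8 CPM after irradiation. That is 8.25-fold above the 24-hour control (3.14 ± 0.45, adjusted p = 0.0112). Ei24 and Aen, a p53-induced endoplasmic reticulum protein and a nuclease, also rose (adjusted p = 0.0383 and 0.0421). Bbc3, which encodes PUMA, measured 19.4 CPM against 8.65 CPM in the 24-hour control (adjusted p = 0.17). Fas, a death receptor, measured 43.9 and 46.9 CPM (adjusted p = 0.97). Trp53 itself measured 67.6 and 80.6 CPM (adjusted p = 0.37). Pcna, the replication clamp and also a p53 target, measured 69.2 CPM and lay below all 5 controls at 91.3 to 112 CPM (adjusted p = 0.218). Mdm2 was not called without the 24-hour, 1-, 4- or 32-week control (adjusted p up to 0.0987), Ei24 without the 1-, 4-, 12- or 32-week control (up to 0.0975), and Aen without the 24-hour, 4-, 12- or 32-week control (up to 0.0743). The count of called arrest genes was 6 without the 1-week control and 6 under scaling to the library total. The count of called death genes was 2 without the 4-, 12- or 32-week control and 2 under that scaling.

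**Figure D2:**
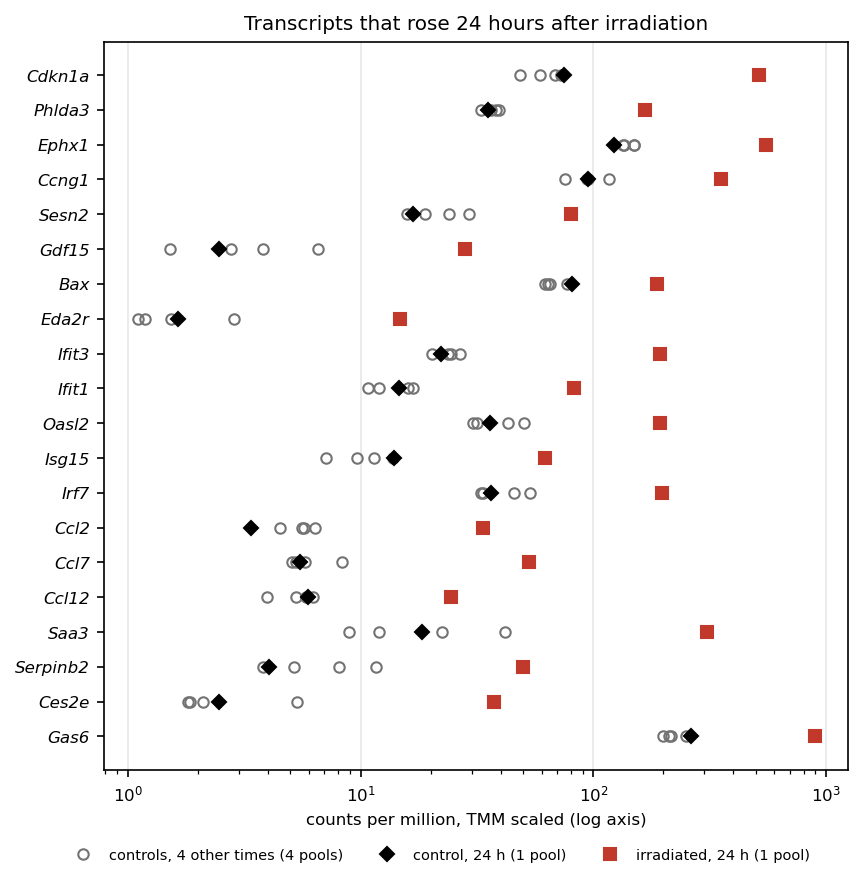
CPM on a log axis for 20 genes that rose, with squares for the irradiated 24-hour pool, diamonds for the 24-hour control and open circles for the 4 later controls. For all 20, as for every gene that rose, the irradiated 24-hour value lies above the 5 controls. For Cdkn1a it is 516 CPM against 48.2 to 74.8 CPM.

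The other large group that rose was the antiviral set of the interferon response. Over all tested genes 0.602% rose and 22.1% lay above all 5 controls. Of 46 tested antiviral effectors 21 rose and none fell, 43 lay above all 5 controls, and the sum was 5383 CPM against 2380 to 2750 CPM. The median log2 change from the 24-hour control was 1.21. Interferons bind to cells through receptors whose signal ends at the interferon-stimulated response element (ISRE) of target promoters, searched here as TTTC, any 2 bases and TTTC on both strands. The element lay within 250 bases before to 50 bases after a RefSeq start (GRCm38.p6) in 20 of the 40 antiviral effectors with a promoter in that table, which is 50%. Over 27025 genes with a promoter the share was 3.99%. It lay in 11 of the 19 called effectors with a promoter, and Ifit2, Oasl1 and Oasl2 were among those without it. The 3 promoters below, 200 bases each up to the start, are examples with a match, from members with a called rise. Capitals mark matches to the element, which in Isg15 are 3 overlapping matches on the opposite strand.

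Ifit3: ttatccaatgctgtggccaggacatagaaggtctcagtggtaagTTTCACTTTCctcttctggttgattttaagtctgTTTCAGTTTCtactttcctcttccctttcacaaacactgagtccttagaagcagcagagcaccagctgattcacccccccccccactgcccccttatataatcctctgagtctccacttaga
Ifit1: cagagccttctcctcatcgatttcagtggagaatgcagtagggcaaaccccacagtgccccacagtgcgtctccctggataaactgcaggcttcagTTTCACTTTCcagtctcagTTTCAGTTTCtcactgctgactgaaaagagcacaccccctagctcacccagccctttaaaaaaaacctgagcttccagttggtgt
Isg15: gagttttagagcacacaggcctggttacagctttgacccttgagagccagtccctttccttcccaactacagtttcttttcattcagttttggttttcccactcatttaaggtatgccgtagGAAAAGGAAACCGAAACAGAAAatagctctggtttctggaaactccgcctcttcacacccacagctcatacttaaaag

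The Ifit3 stretch is chr19:34583329-34583528 on the plus strand, with matches starting 156 and 122 bases before the start. The Ifit1 stretch is chr19:34640689-34640888 on the plus strand, with matches 104 and 85 bases before it. The Isg15 stretch is chr4:156200819-156201018 on the minus strand, with its run of capitals starting 78 bases before it. A match is a description of letters and does not show that a factor was bound. Among all genes that rose and had a promoter, 14 of 77 held the element (18.2%).

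Ifit3, the gene with the smallest p among effectors, measured 194 CPM in the irradiated pool and 22.2, 24.4, 23.7, 26.9 and 20.3 CPM in the controls. The controls lay within a narrow band that the irradiated pool exceeded 8.68-fold at 24 hours (3.05 ± 0.17, adjusted p = 7.2e-05). Ifit1, which binds viral RNA lacking cap methylation, measured 82.4 CPM against 14.6, 15.9, 10.8, 16.8 and 12 CPM (2.55 ± 0.24, adjusted p = 0.0012). Isg15, a ubiquitin-like modifier, measured 61.9 CPM against 13.9, 11.4, 9.69, 13.8 and 7.12 CPM (2.46 ± 0.30, adjusted p = 0.00495). Neither gene's irradiated value was reached by a control. Oasl2, of the oligoadenylate synthetase family, measured 194 CPM against 30.5 to 50.2 CPM (adjusted p = 0.00168), and Rtp4 99.1 CPM against 25.1 to 32.1 CPM (adjusted p = 0.00179). Ifit3b and Oas1g, which have close copies elsewhere in their clusters and may share fragments with them, measured 60.3 CPM against 6.84 to 8.73 CPM and 34.1 CPM against 4.07 to 5.93 CPM. Ifitm3, which blocks entry of viruses, measured 866 CPM against 351 to 374 CPM (adjusted p = 0.00402), and Ifi27l2a 510 CPM against 109 to 164 CPM (adjusted p = 0.00269). Oas3 measured 51.9 CPM against 8.5 to 12.6 CPM (adjusted p = 0.00265). The other called effectors were Ifit2, Oas1a, Oasl1, Ifi44, Xaf1, Lgals3bp, Slfn1, Slfn5, Phf11d and Lgals9, with folds over the 24-hour control from 1.9 for Lgals9 to 4.45 for Oasl1. Not every effector passed, since Rsad2, viperin, measured 125 CPM but varied among the controls at 46.6, 73.3, 20, 81.8 and 17.6 CPM (adjusted p = 0.566), and Mx1 measured 6.8 CPM against 0.173 to 2.64 CPM (adjusted p = 0.355). Bst2, tetherin, measured 173 CPM against 58 to 80.8 CPM (adjusted p = 0.0168) and was not called without the 1-week control (0.055). Between 13 and 19 effectors rose when 1 control was left out.

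The upstream genes of the pathway were read as separate lists, against the 0.602% of all tested genes that rose. Of 15 sensors of nucleic acids 3 rose, with a median log2 change of 0.22. They were Ifi204, a sensor of DNA, at 110 CPM against 25.4 to 40.1 CPM, Zbp1, a sensor of Z-form nucleic acids, at 92.4 CPM against 26.3 to 37.6 CPM, and Dhx58, a RIG-I-like receptor, at 61.6 CPM against 21.4 to 28.9 CPM (adjusted p = 0.00534, 0.00781 and 0.0212). Cgas, the enzyme that senses cytosolic DNA, measured 2.48 CPM and lay below the controls at 4.91 to 5.6 CPM (adjusted p = 0.331). Of the interferon genes themselves, Ifnb1 had 0 fragments in both 24-hour pools, and Ifng, the 1 ligand tested of 9, measured 2.08 CPM against 0.906 CPM in the 24-hour control and up to 3.73 CPM in the others. Of 19 receptors and signalling genes Irf7, the factor that amplifies type I interferon production, rose to 198 CPM from 36.3, 53.6, 45.4, 33.6 and 32.9 CPM (2.29 ± 0.23, adjusted p = 0.00179). Irf9 measured 112 CPM against 63.5 to 78.9 CPM (adjusted p = 0.154). The receptor chain Ifnar1 measured 61.4 CPM against 64.2 CPM in the 24-hour control (adjusted p = 0.896). Of 20 guanylate-binding and interferon-gamma-responsive genes 2 rose, Gbp2 at 117 CPM against 56.8 to 65.1 CPM and Iigp1 at 36 CPM against 11.4 to 15.4 CPM (adjusted p = 0.029 and 0.0314). Neither was called without the 1-week control (both 0.0771), nor Iigp1 without the 32-week control. Cxcl10, a chemokine of activated T cells, measured 13.3 CPM against 2.97, 3.64, 3.72, 2.46 and 7.58 CPM (adjusted p = 0.187). None of 19 genes of MHC class I presentation passed the test in edgeR, 2 had an unadjusted p under 0.05, both on the higher side, and DESeq2 and limma called none. H2-K1, a heavy chain of class I, measured 1548 CPM in the irradiated pool and 1546 CPM in the 24-hour control.

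Chemokines that draw monocytes through CCR2 were among the largest rises. Of 16 tested chemokines and receptors of monocytes 4 rose, where 0.602% of all tested genes rose. The monocyte list had a median log2 change of 0.76. Ccl7 measured 52.9 CPM against 5.52, 8.34, 5.28, 5.76 and 5.09 CPM, 9.34-fold above the 24-hour control (3.14 ± 0.28, adjusted p = 0.00087). Ccl2 measured 33.5 CPM against 3.38, 5.58, 6.4, 4.49 and 5.73 CPM, 9.5-fold higher (2.71 ± 0.32, adjusted p = 0.00429). Ccl12, the mouse relative of both, measured 24.4 CPM against 3.98 to 6.23 CPM (adjusted p = 0.0108). For these 3 ligands the controls stayed in single digits and did not overlap with the irradiated pool. Ccr2, the receptor itself and a mark of monocytes, measured 96.1 CPM against 131 CPM in the 24-hour control (adjusted p = 0.708). Ccl9 measured 274 CPM against 101 to 153 CPM (adjusted p = 0.0401) and was not called without the 1-, 4- or 32-week control (up to 0.0929). Pf4, platelet factor 4 and the 1 called of 11 neutrophil chemokines and receptors, measured 168 CPM against 41.3 to 77 CPM (adjusted p = 0.0183, and 0.0555 without the 1-week control). Of 18 chemokines and receptors of lymphocytes 2 fell. Cxcr5, the B cell receptor for CXCL13, measured 11.8 CPM against 35.3 to 63.1 CPM, and Cxcr6, found on resident T cells, 16.4 CPM against 33 to 50.9 CPM (adjusted p = 0.0347 and 0.0452). Neither passed without the 1- or the 32-week control (up to 0.0847 and 0.102), nor Cxcr6 without the 24-hour or 12-week control.

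Cytokines of the interleukin 1, interleukin 6 and tumour necrosis factor families were not called. None of 29 tested members of that list passed in edgeR, 6 had an unadjusted p under 0.05 on the higher side and 2 on the lower, and DESeq2 and limma called none. Il1b measured 84.6 CPM against 53.3 CPM in the 24-hour control and up to 89.3 CPM in the others (adjusted p = 0.86). Il6 had 6 fragments in the 24-hour control and 20 in the irradiated pool. It did not pass the count filter, which needed counts in several libraries, and was not tested. Tnf measured 3.84 CPM (adjusted p = 0.907). Secreted proteins of the acute phase did pass for 4 of 18 tested members. Saa3, a serum amyloid made locally by macrophages and epithelium, measured 308 CPM against 18.3, 8.9, 12, 41.9 and 22.4 CPM, 16.7-fold above the 24-hour control. The irradiated pool was clear of the controls, which themselves spread widely, and the change of 3.90 ± 0.58 (adjusted p = 0.0377) was not called without the 24-hour or 4-week control (up to 0.116). Serpina3n, a protease inhibitor, measured 82.8 CPM against 32.5 to 40.6 CPM (adjusted p = 0.019, and 0.055 without the 1-week control). Lcn2, lipocalin 2, measured 196 CPM against 62.9 to 108 CPM (adjusted p = 0.0465), and Itih4 125 CPM against 40.2 to 64.9 CPM (adjusted p = 0.0426). Lcn2 was not called without the 1-, 4-, 12- or 32-week control (up to 0.0837), nor Itih4 without the 1-, 4- or 12-week control (up to 0.107). Between 1 and 3 of the 18 rose when 1 control was left out.

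Against 0.602% and 22.1% of all tested genes, complement genes rose in 5 of 21 tested members and 17 lay above all 5 controls. Summed, they stood at 6338 CPM in the irradiated pool, 4025 CPM in the 24-hour control, the highest control, and 3036 CPM in the lowest. Cfb, factor B of the alternative pathway, measured 290 CPM against 102, 123, 83.9, 135 and 98.6 CPM (1.42 ± 0.22, adjusted p = 0.0166). C3ar1, the receptor of the C3a fragment, measured 62.5 CPM against 19.3 to 27.2 CPM (adjusted p = 0.0232, and 0.062 without the 1-week control). C1qb and C1qc, chains of the first component made by macrophages, measured 627 CPM against 178 to 308 CPM and 408 CPM against 112 to 198 CPM (adjusted p = 0.0409 and 0.0453). C4b, which has a near-identical copy in C4a, measured 433 CPM against 207 to 263 CPM (adjusted p = 0.0409). These last 3 were not called without the 1-, 4-, 12- or 32-week control (up to 0.077, 0.0879 and 0.102). From 1 to 8 complement genes rose when 1 control was left out.

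Receptors and secreted proteins for scavenging and for uptake of dying cells rose in 6 of 23 tested members, where 0.602% of all tested genes rose. Gas6, the bridge between phosphatidylserine on dying cells and the TAM receptors, measured 893 CPM against 264, 251, 216, 200 and 212 CPM, 3.38-fold higher (1.97 ± 0.17, adjusted p = 0.000834). Cd5l, a protein secreted by macrophages, measured 64.3 CPM against 8.32, 6.72, 12.2, 15.3 and 13.8 CPM (2.51 ± 0.34, adjusted p = 0.00968). Both were above every control without overlap. Marco and Msr1, the macrophage scavenger receptors of class A, measured 380 CPM against 87.8 to 169 CPM and 91.6 CPM against 20.2 to 40.6 CPM (adjusted p = 0.027 and 0.0348). Stab1, stabilin 1, measured 237 CPM against 51.2 to 98.5 CPM (adjusted p = 0.0354). Neither Marco nor Msr1 was called without the 1- or 32-week control (up to 0.0776 and 0.0838), nor Stab1 without the 1- or 12-week control (up to 0.0673). Fcgr1, the high-affinity receptor for IgG, measured 72.3 CPM against 19.1 to 27.3 CPM (adjusted p = 0.00781). Markers of monocytes and interstitial macrophages moved with these genes, since 3 of 19 rose (Ms4a7 and, shared with the complement list, C1qb and C1qc) and their sum was 34993 CPM against 21375 to 31080 CPM. That count was 0 without the 1-week control, 1 without the 4-, 12- or 32-week control and 1 under scaling to the library total, and Ms4a7 was not called without the 1-week control (adjusted p = 0.0764). The alveolar macrophage markers summed to 18870 CPM against 8635 to 16922 CPM, with Marco the 1 called of 15, and those of neutrophils to 1356 CPM against 764 to 997 CPM, with Mmp9 the 1 called of 15. No list had all its markers near 0, and the part of these cells in the complement, chemokine and scavenger results was not tested.

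**Figure D3:**
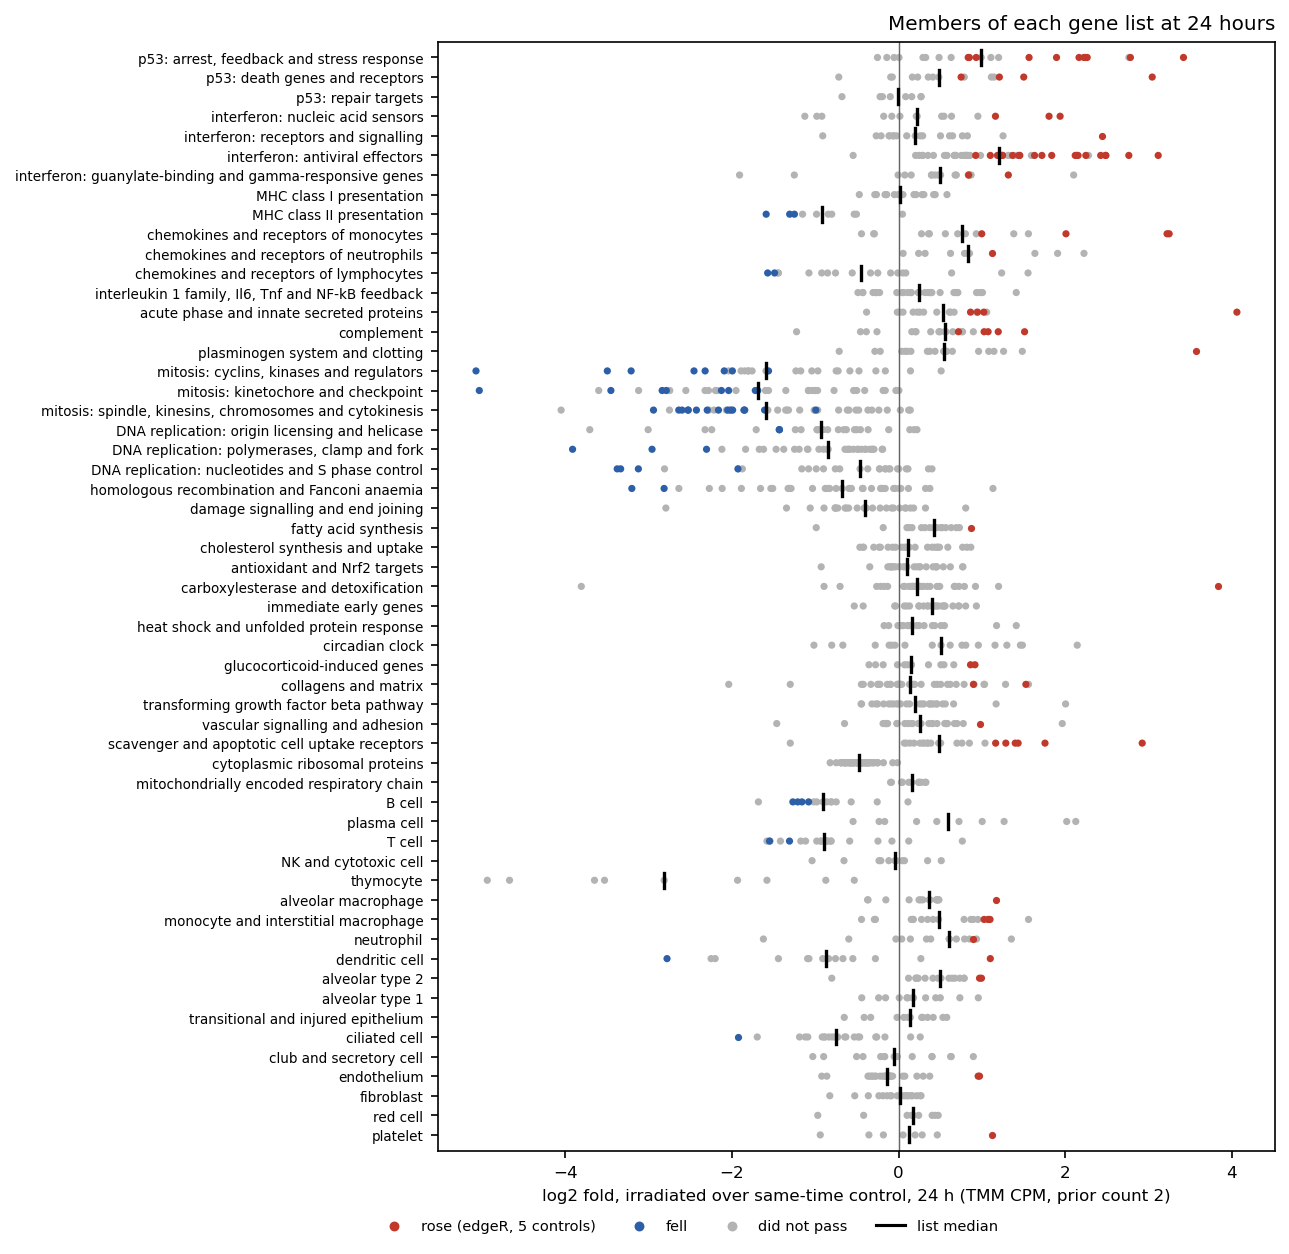
For gene and marker lists, points give the log2 change of each tested member between the irradiated pool and the 24-hour control and bars the list median, with called members coloured. The spindle list is centred at -1.59 and the antiviral effectors at 1.21, while MHC class I presentation lies at 0.02.

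Genes of mitosis were lower in most members. Of the cyclins, kinases and regulators of mitosis 8 of 27 tested fell, of the kinetochore and checkpoint genes 8 of 33, and of the spindle, kinesin, chromosome and cytokinesis genes 15 of 42, where 0.454% of all genes fell. No member rose. The medians of the log2 change from the 24-hour control were -1.59, -1.69 and -1.59. Of the 102 members 88 lay below all 5 controls, as did 21.2% of all tested genes. Summed, the spindle genes stood at 412 CPM against 877 to 1110 CPM. Many mitotic promoters carry the cell cycle homology region (CHR) through which the DREAM complex acts, searched here as TTTGAA on both strands. It lay in 57 of the 85 mitotic members with a RefSeq promoter (67.1%), and in 20.2% of all promoters. The CCAAT box was present in 61 of the 85 (71.8%) and in 41.1% of all. The CHR lay in 19 of the 26 called mitotic members with a promoter, and Ccnb1, Birc5 and Mybl2 were among those without it. The 3 promoters below are examples with a match, from called members of 3 steps of mitosis, entry, chromosome untangling and exit. Capitals mark the CHR matches.

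Cdk1: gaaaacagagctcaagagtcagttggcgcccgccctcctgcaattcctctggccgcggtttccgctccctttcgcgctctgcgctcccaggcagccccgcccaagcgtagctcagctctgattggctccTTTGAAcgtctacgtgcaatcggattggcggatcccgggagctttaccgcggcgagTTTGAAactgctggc
Top2a: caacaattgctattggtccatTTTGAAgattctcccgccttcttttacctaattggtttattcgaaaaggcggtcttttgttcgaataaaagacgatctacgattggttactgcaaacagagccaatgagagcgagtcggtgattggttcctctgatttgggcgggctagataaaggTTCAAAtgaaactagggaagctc
Cdc20: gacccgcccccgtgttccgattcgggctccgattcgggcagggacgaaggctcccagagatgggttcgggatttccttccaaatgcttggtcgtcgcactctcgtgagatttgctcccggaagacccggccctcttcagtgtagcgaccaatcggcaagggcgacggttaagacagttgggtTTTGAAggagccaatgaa

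The Cdk1 stretch is chr10:69352913-69353112 on the minus strand, with matches 71 and 15 bases before the start. The Top2a stretch is chr11:99024190-99024389 on the minus strand, with matches 179 and 23 bases before it, the nearer one on the opposite strand. The Cdc20 stretch is chr4:118437344-118437543 on the minus strand, with 1 match 18 bases before the start. These letters are again a description and no evidence of binding.

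Ccnb2 (chromosome 9, 70407692 to 70421547, minus strand, GRCm38) measured 3.04 CPM in the irradiated pool and 29.5, 35.6, 29.2, 23.7 and 28.1 CPM in the controls. Ccna2, counted here with the S phase genes (chromosome 3, 36564865 to 36572150, minus strand) measured 3.92 CPM against 35.4, 26.2, 33.1, 32 and 39.4 CPM. Every control of both cyclins was several times higher than the irradiated pool, with log2 changes of -3.26 ± 0.35 and -3.08 ± 0.33 (both adjusted p = 0.00265). Cdk1, the kinase that cyclin B activates, measured 7.36 CPM against 29.8, 27.4, 32.8, 20.4 and 27.8 CPM (-1.91 ± 0.33, adjusted p = 0.0278, and 0.0743 without the 1-week control). Cdc20, which activates the anaphase-promoting complex, measured 4.4 CPM against 20.7 to 30.2 CPM (-2.50 ± 0.35, adjusted p = 0.0102). Mybl2, the B-Myb factor of G2 gene expression, had 81 fragments in the 24-hour control and 0 in the irradiated pool. Against a floor of 3 fragments in that library it was at least 24.1-fold lower, and its call (adjusted p = 0.0303) was lost without the 1-week control (0.055). Birc5, survivin of the chromosomal passenger complex, measured 3.12 CPM against 19.9 to 32.9 CPM (adjusted p = 0.00706). Nuf2, of the outer kinetochore, measured 1.28 CPM against 9.66 to 15.7 CPM (adjusted p = 0.00986), and Cenpa, the centromeric histone, 6.64 CPM against 22.1 to 32.9 CPM (adjusted p = 0.0236). Top2a, the topoisomerase that separates sister DNA, measured 9.04 CPM against 52.8, 59.5, 76.8, 64.9 and 107 CPM (adjusted p = 0.0104). Tpx2, a spindle assembly factor, measured 4.08 CPM against 24.3, 26.5, 25.9, 28.9 and 27.8 CPM (-2.71 ± 0.29, adjusted p = 0.00265).

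Further called members were Pbk and Nek2, mitotic kinases, at 0.88 CPM against 10.3 to 18.8 CPM and 2.96 CPM against 14.3 to 20.3 CPM (adjusted p = 0.0103 and 0.0163), and Kif11, the motor that parts the spindle poles, at 2.8 CPM against 15.4 to 29.6 CPM (adjusted p = 0.0171). Racgap1 and Nusap1, of cytokinesis and spindle bundling, measured 16.1 CPM against 49.4 to 60.3 CPM and 4.48 CPM against 22.7 to 28.3 CPM (both adjusted p = 0.00534). Smc4, of the condensin complex, had the highest level of the called spindle genes and measured 39.5 CPM against 78.9 to 107 CPM (adjusted p = 0.0334). Not all proliferation genes passed. Mki67, the antigen Ki-67, measured 6.48 CPM against 14.8, 21.3, 30.6, 9.75 and 40.1 CPM, and the spread of its controls left it uncalled (adjusted p = 0.326). The numbers called in the 3 mitotic lists were 4 to 8, 4 to 7 and 6 to 13 when 1 control was left out. Thymocyte markers moved in the same direction, at a sum of 49.5 CPM in the irradiated pool against 147 CPM in the 24-hour control and 145 to 576 CPM over the 5 controls. In the controls, in the order kept throughout, the spindle sum was 877, 955, 1020, 881 and 1110 CPM. The 4- and 32-week controls had the highest spindle sums and also the highest Rag1, given below. The part of thymocytes in the mitotic result was not tested.

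**Figure D4:**
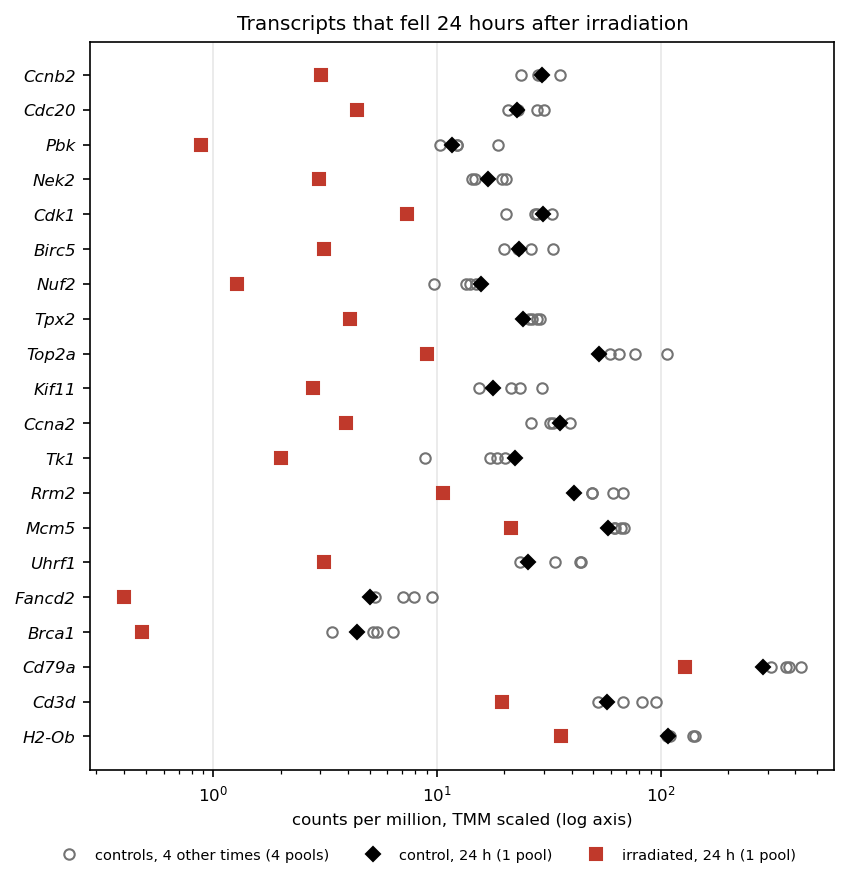
CPM on a log axis for 20 genes that fell, with squares for the irradiated 24-hour pool, diamonds for the 24-hour control and open circles for the 4 later controls. For all 20, as for every gene that fell, the irradiated 24-hour value lies below the 5 controls. For Ccnb2 it is 3.04 CPM against 23.7 to 35.6 CPM.

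The median changes of the DNA replication lists were smaller than those of the mitotic lists. Over all 15625 tested genes 0.454% fell, and 7876 were lower than in the 24-hour control. Of origin licensing and helicase genes 2 of 26 fell (median log2 change -0.94), of polymerase, clamp and fork genes 3 of 33 (-0.85, with all 33 lower than in the 24-hour control), and of nucleotide and S phase genes 4 of 27 (-0.46). Mcm5, a subunit of the replicative helicase, measured 21.4 CPM against 58.1, 68.7, 66.6, 62.5 and 62 CPM (-1.57 ± 0.21, adjusted p = 0.00792). Mcm2 measured 21.9 CPM against 48.1 to 65.9 CPM (adjusted p = 0.0232, and 0.0627 without the 1-week control). Uhrf1, which brings the maintenance methyltransferase to new DNA, measured 3.12 CPM against 25.4, 33.8, 44, 23.5 and 43.7 CPM (-3.45 ± 0.48, adjusted p = 0.0104). Rrm2, the S phase subunit of ribonucleotide reductase, measured 10.6 CPM against 41, 49.2, 61.4, 49.1 and 67.8 CPM (-2.33 ± 0.33, adjusted p = 0.0104). Its p53-induced relative Rrm2b measured 17.9 CPM and 20.5 CPM in the 2 pools. Wdhd1, which couples helicase and polymerase, measured 3.12 CPM against 15.7 to 18.2 CPM (adjusted p = 0.0108). Dscc1, of the clamp loader for cohesion, had 35 fragments in the 24-hour control and 0 in the irradiated pool, at least 10.4-fold lower (adjusted p = 0.0361, and up to 0.0776 without the 1-, 4- or 12-week control). Ccne2, cyclin E2, measured 0.88 CPM against 4.91 to 13.8 CPM (adjusted p = 0.0476, and up to 0.107 without the 24-hour, 1-, 4- or 32-week control). Tk1, thymidine kinase, measured 2 CPM against 8.81 to 22.3 CPM (adjusted p = 0.0361, and up to 0.088 without the 1- or 32-week control). The E2F site, searched as TTTGGCGC or TTTCGCGC on both strands, lay in 7 of 20 licensing promoters (35.0%) and 8 of 28 of the polymerase list (28.6%), against 0.929% of all promoters.

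Few repair genes tied to S phase passed the test. Over all 15625 tested genes 0.454% fell, and 979 were lower at an unadjusted p under 0.05 in edgeR. Of 35 tested genes of homologous recombination and the Fanconi anaemia pathway 2 fell, with a median of -0.68. Fancd2, which is loaded on crosslinked DNA, measured 0.4 CPM against 5.03, 9.47, 7.01, 5.25 and 7.86 CPM (-4.08 ± 0.67, adjusted p = 0.0229, and 0.0522 without the 1-week control). Brca1 measured 0.48 CPM against 4.37, 3.4, 5.19, 6.36 and 5.36 CPM (-3.33 ± 0.64, adjusted p = 0.0421) and was not called when any 1 control was left out (up to 0.072). None of 28 genes of damage signalling and end joining passed in edgeR, 11 had an unadjusted p under 0.05, all lower, DESeq2 called 3 that fell, and limma called none. Atm, the kinase of double-strand breaks, measured 10.7 CPM against 14.2 to 23.6 CPM (adjusted p = 0.331), and Parp1 69.4 CPM against 117 to 140 CPM (adjusted p = 0.0679).

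Of 10 genes of MHC class II presentation 3 fell, and 8 lay below all 5 controls, where 0.454% of all tested genes fell and 21.2% lay below. Their sum was 12991 CPM against 22193 CPM in the 24-hour control and 17040 to 24517 CPM over the controls. H2-Ob, the beta chain of H2-O expressed in B cells, measured 35.7 CPM against 108, 139, 106, 142 and 110 CPM (-1.76 ± 0.25, adjusted p = 0.0103). H2-DMb2, of the peptide loader H2-M, measured 99 CPM against 194 to 281 CPM, and H2-Oa 18.1 CPM against 38.9 to 51.9 CPM (adjusted p = 0.039 and 0.0409). H2-DMb2, which has a close copy in H2-DMb1, was not called without the 24-hour, 1- or 12-week control (up to 0.0743), nor H2-Oa when any 1 control was left out (up to 0.0863), and 1 or 2 of the 10 genes fell when 1 control was left out. The abundant members Cd74, the invariant chain, and H2-Aa were also lower, at 6018 CPM against 8590 to 12505 CPM and at 1277 CPM against 2528 CPM in the 24-hour control, without passing (adjusted p = 0.203 and 0.16).

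Of 15 B cell markers 4 fell and 13 lay below all 5 controls, where 0.454% and 21.2% of all tested genes did. The median log2 change of these markers was -0.91 from the 24-hour control and -1.37 against the 5 controls. Cd79a, a signalling chain of the B cell receptor, measured 128 CPM against 286, 375, 310, 422 and 362 CPM (-1.45 ± 0.24, adjusted p = 0.0251). Ighd, the IgD heavy chain of mature naive B cells, measured 89.2 CPM against 215, 314, 258, 349 and 263 CPM (adjusted p = 0.0251). No control of either gene came near the irradiated pool. Without the 1-week control, 0 of the 15 passed (0.0657 for Cd79a and 0.0622 for Ighd). The other called markers, Cd79b and Fcer2a, measured 140 CPM against 297 to 452 CPM and 29.3 CPM against 68.1 to 130 CPM (adjusted p = 0.0442 and 0.0428). Cd79b was also not called without the 32-week control (up to 0.107), nor Fcer2a without the 4-, 12- or 32-week control (up to 0.0987). The count of B cell markers that fell was 7 without the 24-hour control and 2 without that of 32 weeks. Among T cell markers 18 of 21 lay below all 5 controls and 2 passed as lower. Cd3d, a chain of the T cell receptor complex, measured 19.5 CPM against 57.4, 52.6, 95.1, 67.7 and 82.4 CPM, and Cd3g 31.3 CPM against 75.3 to 116 CPM (adjusted p = 0.0383 and 0.0316). Cd3d was not called without the 12- or 32-week control (up to 0.0743), nor Cd3g without the 1- or 32-week control (up to 0.0744), and the count of T cell markers that fell was 0 without the 32-week control and 0 under scaling to the library total. The 24-hour control was the lowest of the 5 controls in both sums, at 2491 CPM for B cells and 1206 CPM for T cells, and the irradiated pool lay below it at 1571 and 696 CPM.

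Thymocyte genes had a median log2 change of -2.81, or -2.15 with undetected members set at their bound of 3 fragments. Of the 9 genes 8 lay below all 5 controls, where 21.2% of all tested genes did. None was called in edgeR, 3 had an unadjusted p under 0.05, all lower, DESeq2 called 4 that fell, and limma called none. Rag1, the recombinase of developing lymphocytes, had 73 fragments in the 24-hour control and 0 in the irradiated pool, which is at least 21.9-fold lower. Its controls ran at 4.86, 4.13, 85.2, 9.66 and 122 CPM, so unirradiated pools themselves differed widely (adjusted p = 0.566). Natural killer and cytotoxic cell markers had a median of -0.04 with 0 of 12 called by edgeR, DESeq2 or limma and 0 at an unadjusted p under 0.05.

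Among 14 dendritic cell markers 1 fell and 1 rose (Bst2, which is also an antiviral effector), and 9 lay below all 5 controls. Over all tested genes 0.454% fell, 0.602% rose and 21.2% lay below all 5 controls. Xcr1, the receptor that marks cross-presenting dendritic cells, measured 3.28 CPM against 23.5 CPM in the 24-hour control and 13.2 to 20.6 CPM in the others (-2.43 ± 0.45, adjusted p = 0.0378, and up to 0.0927 without the 1- or 12-week control). Itgae, the CD103 chain shared with resident T cells, measured 16.8 CPM against 41.7 to 77.9 CPM (adjusted p = 0.0731), and Flt3 9.36 CPM against 26 to 57.9 CPM (adjusted p = 0.0762). Both were below every control. The B cell, T cell and dendritic cell markers thus moved beside the class II genes, and their part in that result was not tested.

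In the epithelium, 2 of 18 alveolar type 2 markers rose and 1 of 23 ciliated cell markers fell. Of the type 2 markers 17 lay above all 5 controls, as did 22.1% of all tested genes. Abca3, the lipid transporter of lamellar bodies, measured 521 CPM against 265, 194, 227, 214 and 187 CPM (1.26 ± 0.19, adjusted p = 0.0157). Etv5, a transcription factor of type 2 identity, measured 298 CPM against 103 to 149 CPM (adjusted p = 0.0232, and 0.055 without the 1-week control). Sftpc, surfactant protein C, measured 43012 CPM against 32321 CPM in the 24-hour control and 18559 to 26875 CPM in the others (adjusted p = 0.278). The 24-hour control was the highest of the controls in the type 2 sum, at 56920 CPM, and the irradiated pool stood at 68932 CPM. Fatty acid synthesis genes, which feed surfactant lipids, lay above all 5 controls in 15 of 18, with 1 called. That was Lpin1, a phosphatidate phosphatase, at 170 CPM against 80.4 to 99.1 CPM (adjusted p = 0.0401), and it was not called when any 1 control was left out (up to 0.0833). Fasn, the fatty acid synthase, measured 445 CPM against 158 to 275 CPM (adjusted p = 0.0664). Of the ciliated cell markers 20 lay below all 5 controls, as did 21.2% of all tested genes. The 1 that fell was Dnah9, a dynein heavy chain of cilia, at 2.8 CPM against 10.9 to 20 CPM (adjusted p = 0.0471, and up to 0.0876 without the 1-, 4-, 12- or 32-week control). Foxj1, the master factor of ciliated cells, measured 7.68 CPM against 10.8 to 41.7 CPM (adjusted p = 0.423). The ciliated sum was 508 CPM against 765 to 1447 CPM.

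Further single genes rose outside these groups. Ces2e, a carboxylesterase, measured 37.3 CPM against 2.47, 2.1, 1.82, 5.34 and 1.85 CPM, 14.2-fold higher (3.77 ± 0.44, adjusted p = 0.00422), as the 1 called of 30 tested detoxification genes. Serpinb2, plasminogen activator inhibitor 2, measured 49.8 CPM against 4.04, 5.18, 3.81, 8.05 and 11.7 CPM, 11.9-fold higher (2.93 ± 0.45, adjusted p = 0.0164, and 0.055 without the 1-week control). It was the 1 called of 21 genes of the plasminogen system and clotting. Timp1, an inhibitor of metalloproteinases, measured 33.6 CPM against 7.49 to 13.1 CPM (adjusted p = 0.0374), and Mmp9 169 CPM against 78.1 to 106 CPM (adjusted p = 0.0428), as the 2 called of 37 matrix genes. Timp1 was not called without the 24-hour, 1- or 4-week control (up to 0.0796), nor Mmp9 when any 1 control was left out (up to 0.0795). Col1a1, a chain of collagen I, measured 309 CPM against 305 CPM in the 24-hour control (adjusted p = 0.687). Arg1, arginase 1, measured 124 CPM against 9.89, 10.5, 6.4, 34.1 and 6.29 CPM and was not called (adjusted p = 0.146). In 3 further lists calls were few: 2 of 14 glucocorticoid-induced genes rose (Errfi1 and Lcn2), 1 of 28 vascular genes (Ednrb) and 2 of 26 endothelial markers (Ednrb and Lyve1), and the 1 called of 8 platelet markers was Pf4. Errfi1, Ednrb and Lyve1 were not called without the 1- or 12-week control (up to 0.0776, 0.102 and 0.1). Of the 165 called genes 37 belonged to no list. Among them, named after their values were seen, Alox15, a lipoxygenase of macrophages and eosinophils, measured 224 CPM against 61.6 to 101 CPM, Padi4, which citrullinates histones in neutrophils, 65.6 CPM against 12.1 to 20.1 CPM, and Siglec1, the macrophage sialoadhesin, 205 CPM against 59.1 to 107 CPM.

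In all, 28 lists had no called member. Over all 15625 tested genes 876 were higher and 979 lower at an unadjusted p under 0.05 in edgeR. Of the 474 tested members of those lists 36 were higher and 36 lower at that threshold. DESeq2 called 8 of these members as risen and 9 as fallen, and limma 0 at either pseudocount. Beside those already named, these were the lists of cholesterol synthesis, antioxidant defence, immediate early genes, heat shock, the mitochondrial respiratory chain, and the markers of plasma cells, innate lymphoid cells, mast cells, alveolar type 1 cells, transitional epithelium, club cells, basal cells, fibroblasts, smooth muscle, mesothelium, cardiac muscle, red cells and sex. The transforming growth factor beta pathway was one of them, with Tgfb1 at 85.5 CPM and 85.7 CPM in the irradiated pool and 24-hour control (adjusted p = 0.882). The circadian clock was another, with 4 members higher and 2 lower at an unadjusted p under 0.05 among 19. Dbp, an output gene of the clock, measured 50.9 CPM against 11.4, 26.4, 20.8, 10 and 29.5 CPM (adjusted p = 0.264), and Cry1, a repressor of the clock, 13.7 CPM against 24 to 39.2 CPM (adjusted p = 0.135). The hour of collection is not given in the labels. Cytoplasmic ribosomal protein genes were lower than the 24-hour control in 79 of 79, as were 7876 of all 15625 tested genes. Their median was -0.48, and 48 lay below all 5 controls, where 21.2% of all genes did. Their sum was 20655 CPM against 28698 CPM in the 24-hour control, which was the highest of the controls, and 22967 CPM in the lowest. Of the 79, 12 had an unadjusted p under 0.05, and edgeR, DESeq2 and limma called none. Rps6, of the small subunit, measured 413 CPM against 534 to 679 CPM (adjusted p = 0.276).

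Beside the values of 24 hours, the later irradiated pools of 1, 4, 12 and 32 weeks gave 274, 185, 110 and 82.7 CPM for Cdkn1a and 31.7, 48.5, 41.4 and 23.2 CPM for Ifit3. Ccl7 measured 10.5, 15.7, 7.35 and 7.42 CPM, and Gas6 556, 357, 297 and 206 CPM. Ccnb2 measured 9.37, 33.6, 32.4 and 19.4 CPM, and Top2a 34.4, 101, 74.7 and 47.1 CPM. H2-Ob measured 55.2, 114, 132 and 95.6 CPM, and Cd79a 191, 312, 381 and 256 CPM. Xcr1 measured 4.18, 19.8, 28.7 and 14 CPM. Among the irradiated pools the 24-hour value was the highest for Cdkn1a, Ifit3, Ccl7 and Gas6 and the lowest for Ccnb2, Top2a, H2-Ob, Cd79a and Xcr1. These genes were picked from those called at 24 hours, and others differed. The MHC class II sum was 12991 CPM at 24 hours and 12427 CPM at 1 week. Lcn2 measured 196 CPM at 24 hours and 198 CPM at 4 weeks. Of the 71 genes that fell, 65, 9, 2 and 43 lay below all 5 controls in the 4 later pools. Of the 94 that rose, 67, 73, 52 and 46 lay above them. Shares over all tested genes were not computed for the later pools. These later values are a description, and no difference between times was tested here.

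**Figure D5:**
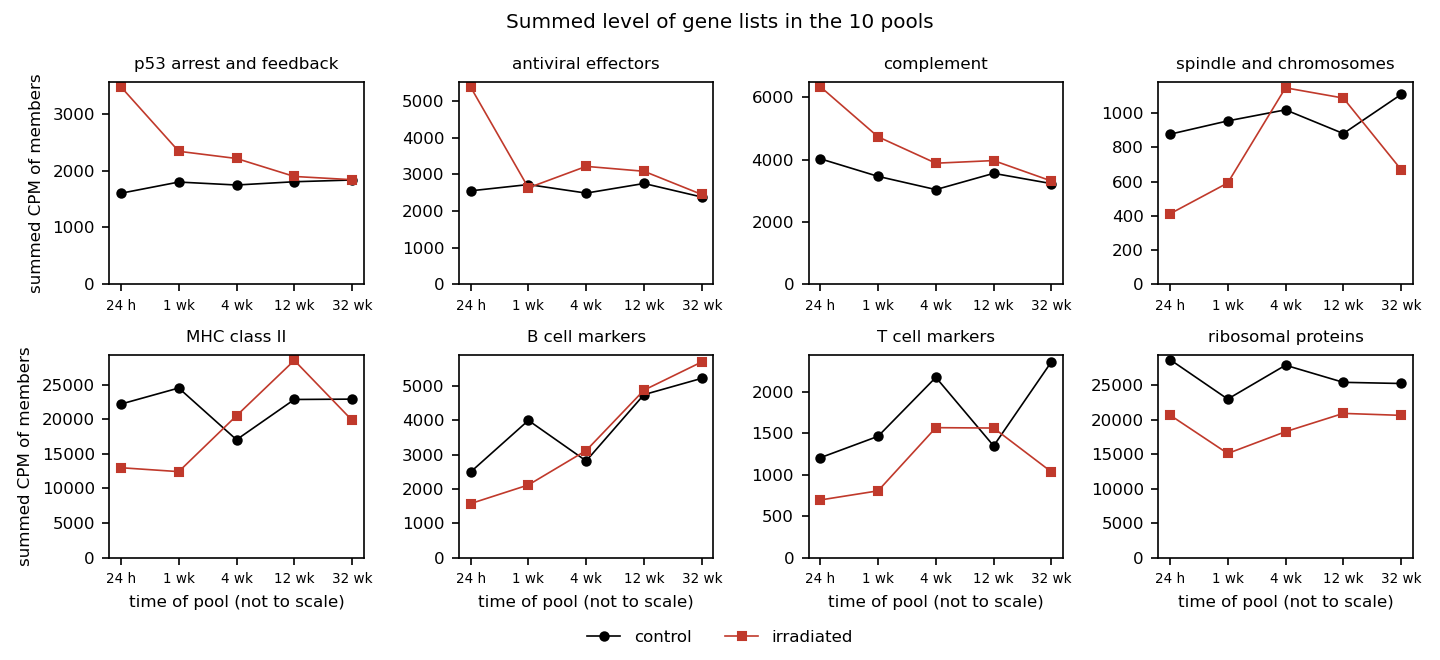
Summed CPM of the tested members of 8 lists in each of the 10 pools by time, with circles for controls and squares for irradiated pools, joined by lines to guide the eye. For the antiviral effectors the 24-hour irradiated pool stands at 5383 CPM and the 5 controls at 2380 to 2750 CPM, and for the spindle genes at 412 CPM against 877 to 1110 CPM.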

How the data were processed

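The authors deposited a table of gene counts and a table of FPKM for 10 libraries, made with Clontech ultralow and Illumina NexteraXT kits per the labels. Trimmomatic 0.32, STAR 2.4.2a, Cufflinks 2.0.2 and Cuffdiff on GRCm38.p4 are named per the submitters' processing notes, with roles, annotation and Cuffdiff version not given in the sources used here. Values in the deposited count table were taken to be expected counts and appear to be rescaled per library, which no source used here states: 78.6% to 80.2% of low values were whole multiples (tolerance 0.05 of a step) of a library's step, from 0.5768 to 1.3869, and the deposited total divided by the step gave estimated fragments. The remaining low values were not whole multiples. Counting error alone is therefore not the whole error. FPKM as deposited by the authors was used for levels per length and, as log2(FPKM + 1) or + 0.1, for limma.

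The deposited counts, rounded to whole numbers, were scaled by TMM over the 10 libraries and filtered with filterByExpr at a minimum count of 10. The filter needed counts in several of the 10 libraries, so a gene high only in the irradiated 24-hour pool could not be tested. edgeR 4.0.16 in R 4.3.3 fitted the irradiated 24-hour pool against 5 controls with robust quasi-likelihood (4 residual degrees of freedom, common dispersion 0.0574), or against the 24-hour control with the 4 others as a further group (3 degrees of freedom, 0.0618). The kit keeps no strand, so overlapping antisense genes cannot be told apart. Folds are of CPM with a prior count of 2. DESeq2 1.42.0 and limma 3.58.1 were alternatives, and the procedure was tested on simulated data. Symbols came from GENCODE M21 for 45137 of 45786 identifiers; the other 649 held 0.12% to 0.168% of counts. Promoters came from RefSeq (GRCm38.p6); 85 of 102 mitotic and 40 of 48 antiviral members matched. No 2 libraries held identical values. No comparison was paired, as each time had 1 irradiated pool and 1 control pool.

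The 39 gene lists, 25 marker lists (1352 entries, 1350 in the tables) and named genes were chosen with earlier results of these data known. Named were the 12 largest rises and 12 largest falls with a mean of at least 20 counts, up to 6 called members of each list, up to 3 uncalled ones where fewer than 2 were called, first markers and a set of well-known genes, 245 in all; the text gives those its results turn on, and some named genes are not reported here. Other genes were named after their values were seen, namely Alox15, Padi4, Siglec1 and the untested genes of the closing section.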

Additional observations from a re-analysis of the deposited data

Results flagged for a closer look

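In 13 of 245 named genes 1 of the 5 controls stood apart from the other 4, its gap to the nearest being over 0.71 of the whole range (Dixon's criterion). Of these, 12 are given here. Chance alone flags about 1 in 20 such groups. Among genes that rose or fell, the control that stood apart was that of 32 weeks for Mybl2 (14.6 CPM, the others 4.53 to 6.92), of 4 weeks for Pbk, a mitotic kinase (18.8 CPM, the others 10.3 to 12.3), of 1 week for Ccl7 (8.34 CPM, the others 5.09 to 5.76), and of 12 weeks for Ces2e (5.34 CPM, the others 1.82 to 2.47) and Wdhd1, a replisome factor (18.2 CPM, the others 15.7 to 16.1). In all 5 genes the irradiated 24-hour pool lay outside that control too, as it lay outside all controls in every called gene. Among uncalled genes, the 12-week control stood apart in Arg1 at 34.1 CPM and in Cyp1b1 at 2.97 CPM. The 32-week control did so in Cxcl10 at 7.58 CPM and Gzmb at 20.3 CPM. The 4-week control did so in Serpine2 at 105 CPM and Gabrp at 25.8 CPM, and the 24-hour control in Calca at 3.46 CPM.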

How the results depend on the processing

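Against the 5 controls 165 genes were called. The count was 254 with no filter (136 rose, 118 fell), 543 with DESeq2 (219 and 324), 101 with limma on log2(FPKM + 1) (63 and 38), 119 with log2(FPKM + 0.1), 122 with total-count scaling, 167 with DESeq2's size factors, 164 on counts divided by the step, 215 at a minimum count of 50, and 66 to 169 when 1 control was left out (66 without that of 1 week). Against the 24-hour control 7 were called: 2 with total-count scaling, 64 with no filter, 12 at a minimum count of 50, 110 with DESeq2, 17 and 13 with limma, and 2 to 8 when 1 control was left out. The causes were not tested. Of 102 named genes called, 95 lost the call under at least 1 alternative and 55 without some control. None of these 102 changed sign, and signs of uncalled named genes were not compared. Of 320 recomputed list medians 27 moved. No paired analysis was possible at 24 hours, where there was 1 irradiated pool and 1 control pool. With 1 irradiated pool of 3 mice, a change that spread between mice would hide cannot be seen, and at the few fragments of genes such as Brca1 or Mybl2 sizes are imprecise.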

Other observations

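Some genes did not pass the count filter, which needed counts in several libraries, and were not tested. They are given as estimated fragments, and were picked after their values were seen. Slfn4, an interferon-induced gene of myeloid cells, had 19 fragments in the 24-hour control and 83 in the irradiated pool. Tnfsf4, the OX40 ligand, had 5 and 39. Cxcl1, a neutrophil chemokine, had 8 and 26, and Trp53cor1, the noncoding RNA next to Cdkn1a known as lincRNA-p21, had 11 and 26. Ccl21a, which has near-identical copies, had 0 and 1758 fragments at 24 hours, 0 and 1986 at 1 week and 1898 and 0 at 4 weeks, so its value is uncertain. Rps6-ps4 (1 and 403), Gm7292 (0 and 333) and Ear-ps9 (0 and 71) may take fragments of genes they resemble and are uncertain as well.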
